A study of Mus musculus with 13 samples.

Results

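The genes described here build ribosomes in the nucleolus. They were taken from the array annotation by symbol: genes whose symbol starts with Nop, Utp, Rrp, Nol, Nob, Bop, Pes or Polr1 followed by letters or digits, Imp3 and Imp4, Wdr12, Wdr43 and Wdr75, and the single genes Fbl, Ncl, Npm1, Dkc1, Gar1, Nhp2, Bysl and Rrs1. Of 17097 genes with a value, 57 were members. Of these, 53 have a known part in ribosome assembly or in making ribosomal RNA, and 4 (Nobox, Nol3, Nol4 and Nol4l) share only the letters of their symbol. By role, 5 members are subunits of RNA polymerase I, 9 belong to the small nucleolar ribonucleoproteins (snoRNPs), 23 act on the small ribosomal subunit, 14 act on the large subunit, and 2 (Ncl and Npm1) are abundant nucleolar proteins with several roles.

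The data are 13 expression arrays (Affymetrix HT MG-430 PM) of cells from C57BL/6 mice, all of which carried the Lgr5-EGFP-ires-CreERT2 allele, a knock-in that makes green fluorescent protein (GFP) wherever the stem cell gene Lgr5 is on. The groups were 3 arrays of sorted hair follicle cells (hair bulge), whose titles give dim GFP, 3 arrays of epithelial villus cells of the intestine (Villus), 3 arrays of intestinal epithelial cells sorted for low GFP (GFP_Low) and 4 arrays of such cells sorted for high GFP (GFP_High). GFP_High cells are the intestinal stem cells, GFP_Low cells their near descendants, and Villus cells the differentiated end of the same lineage. For the intestinal groups the design text states that a sort combined 3 mice. No source used here gives the age of the mice. Groups were taken from titles and source names, because a label field for the Lgr5 level gives the opposite level for 3 arrays (GFP_High 4, GFP_Low 2 and GFP_Low 3) and a high level for every Villus and hair bulge array. The methods put all RNA after a cell sort, whereas the account of the results takes differentiated cells from the whole villus epithelium, so the sources do not settle whether Villus cells passed a gate.

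A ribosome starts in the nucleolus, where RNA polymerase I copies the genes for 18S, 5.8S and 28S ribosomal RNA as a single long precursor. Box C/D snoRNPs, with the methyltransferase fibrillarin (Fbl), methylate this precursor, and box H/ACA snoRNPs, with the pseudouridine synthase dyskerin (Dkc1), turn chosen uridines into pseudouridine. A large complex called the small subunit processome folds and cuts the 18S part, other factors such as the PeBoW complex (Pes1, Bop1 and Wdr12) mature the 28S and 5.8S part, and cells that grow and divide need many new ribosomes.

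Values are intensities on a linear scale, 1 probe set per gene, and differences are on the log2 scale with the standard error (SE) of a limma fit to all arrays. Calls were made at 0.05 on p-values adjusted by Benjamini-Hochberg over all 17097 genes. An intensity of 7.9, the 95th percentile of 84 probe sets of receptors for smell and bitter taste, which these cells should lack, served as the level of probe sets without signal. The group mean was above it for 54 members in hair bulge, 49 in Villus, 54 in GFP_Low and 55 in GFP_High. Intensities of different genes depend on their probes and are not set against each other. The labelled cell types were checked against their markers. All 5 hair follicle keratinocyte genes were above that level in hair bulge, where none of 4 enterocyte genes was. All 4 enterocyte genes were above it in Villus, with a sum of 26010 to 26770. They were also above it in GFP_Low (2066 to 4750) and GFP_High (136 to 371). Of 4 intestinal stem cell genes, Lgr5 and Ascl2 were not above it in Villus, while Olfm4 (75.4 ± 40.5) and Tnfrsf19 (9.17 ± 1.15) were (SD, n = 3). Lgr5 averaged 30.9 ± 30.5 in GFP_Low and 649.8 ± 118 in GFP_High (SD, n = 3 and n = 4). The arrays are of bulk RNA, so that fewer cells of a type and less RNA per cell cannot be told apart.

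Villus cells had far less of these transcripts than the stem cells. In Villus against GFP_High, 49 of 57 members fell and 2 rose, where 26.3% of all genes fell and 22.6% rose. The median difference of the members was -2.21 and that of all genes 0.02. Among these, 34 members fell by a log2 of 2 or more and 11 by 4 or more. Hair bulge cells lay between these groups: 36 members fell and 1 rose in hair bulge against GFP_High (29.1% and 19.4% of all genes, median of the members -0.61 and of all genes -0.06), whereas 1 fell and 47 rose in hair bulge against Villus (27.4% and 26.9% of all genes, median of the members 1.63 and of all genes -0.04). With arrays centred on the median of expressed genes, 22 members fell and 6 rose in hair bulge against GFP_High, with a median of -0.20 for the members and 0.35 for all genes. Of the members, 30 were both lower in hair bulge than in GFP_High and higher in hair bulge than in Villus.

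The step within the crypt was small. In GFP_Low against GFP_High, 20 members fell and 1 rose (10.4% and 6.32% of all genes), with a median of -0.43 for the members and of -0.04 for all genes. A code in the titles, taken as the sort, is shared by each of 3 GFP_Low arrays with a GFP_High array. With the sort as a block, 12 of these 20 were still called lower. Without GFP_Low 1, the array with the lowest 75th percentile of intensity (37.6, against 40.6 to 52.1 for the other 12 arrays), 10 members were called lower, 9 of them among the 20, and without GFP_Low 3 or GFP_High 4 11 and 13 were. With median centring 11 were called lower. Calls over all genes fell too, from 1773 lower to 1522 with the block and 1093 with centring. Without GFP_Low 1, GFP_Low 3 or GFP_High 4, 1054, 1353 and 1349 of all genes were lower. In Villus against GFP_Low, 47 members fell and 2 rose (21.3% and 20.8% of all genes), with a median of -1.75 for the members and of 0.02 for all genes. These comparisons share arrays and are not independent of each other. All 20 members that fell in GFP_Low also fell in Villus against GFP_High, and 29 fell in Villus with no call in GFP_Low.

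**Figure D1:**
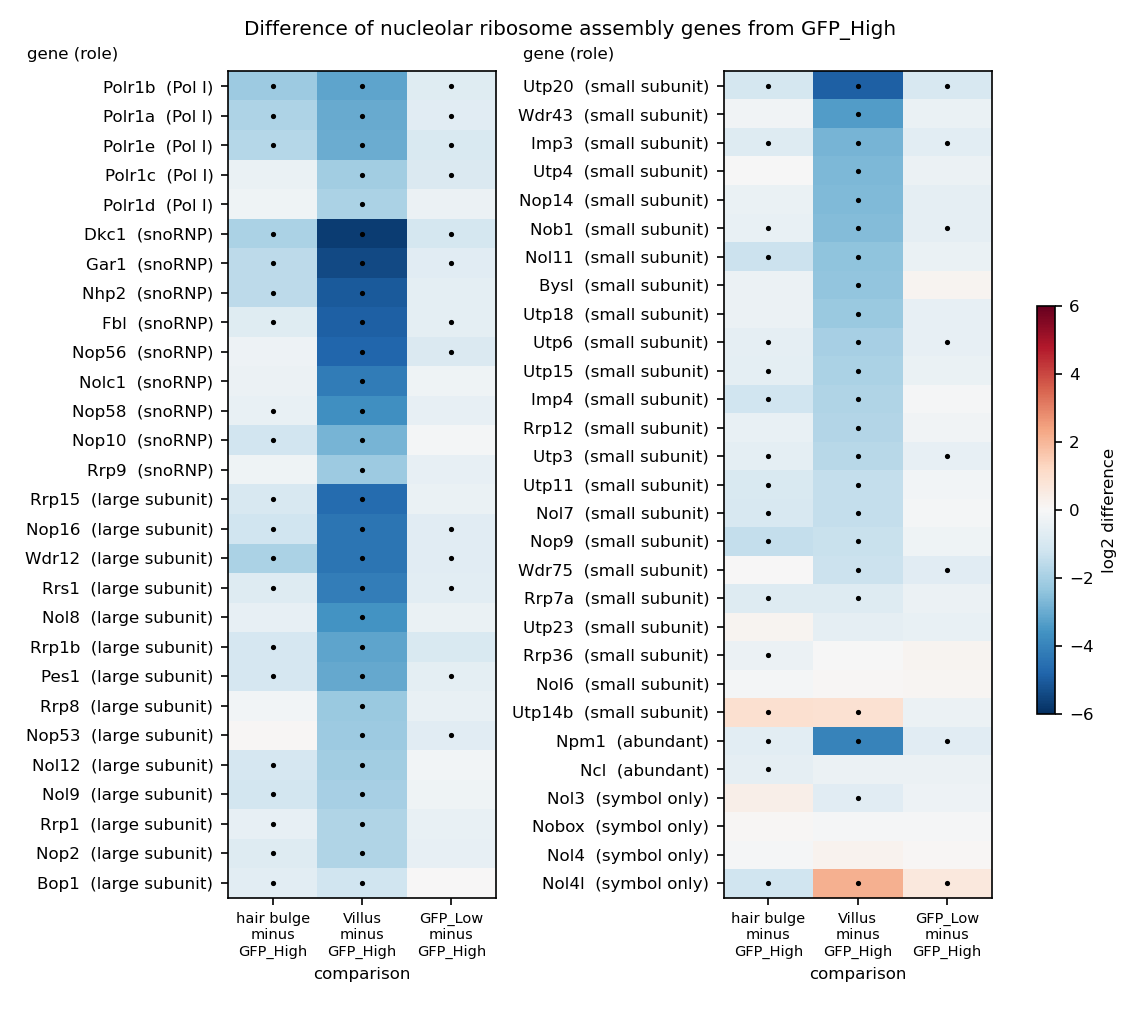
Differences from GFP_High (log2, colour scale) of the 57 members (rows, with their role) in hair bulge, Villus and GFP_Low (columns). A dot marks an adjusted p under 0.05. The Villus column is blue for 49 called members and red for the 2 called members Nol4l and Utp14b.

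RNA polymerase I was the first step examined. All 5 subunits among the members fell in Villus against GFP_High, with a median of -2.96. Polr1a, the largest subunit, measured 24.5, 41.4 and 27.1 in hair bulge, 9.9, 16.2 and 15.3 in Villus, 56.5, 82.0 and 65.4 in GFP_Low, and 97.8, 116, 108 and 114 in GFP_High. No array of a group overlapped another group, and the order was GFP_High, GFP_Low, hair bulge, Villus. Polr1a was 8.05-fold lower in Villus than in GFP_High (log2 -3.01 ± 0.21 SE, adjusted p = 2.1e-08) and 3.6-fold lower in hair bulge than in GFP_High (-1.85 ± 0.21, adjusted p = 3.4e-06). Polr1b, the second-largest subunit, measured 18, 15.5 and 12.4 in hair bulge, 6.5, 9.4 and 7.0 in Villus, 37.8, 42.0 and 43.4 in GFP_Low, and 68.4, 74.8, 64.6 and 65.5 in GFP_High, again without overlap. Its mean in Villus was at the level of the receptor probe sets, so that it was at least 8.15-fold lower there than in GFP_High. Polr1e, which stabilises the enzyme, gave the same order of group means, with 24.2 ± 6.1 in hair bulge, 10.1 ± 1.4 in Villus, 43.8 ± 16.7 in GFP_Low and 78.5 ± 7.1 in GFP_High (SD, n = 3, 3, 3 and 4).

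The remaining subunits among the members, Polr1c and Polr1d, are also part of RNA polymerase III, which makes 5S ribosomal RNA and transfer RNA. Polr1c measured 289, 265 and 209 in hair bulge, 87.8, 68.5 and 82.8 in Villus, 142, 209 and 201 in GFP_Low, and 334, 299, 364 and 342 in GFP_High. Polr1d measured 909, 839 and 901 in hair bulge, 278, 271 and 289 in Villus, 672, 901 and 900.0 in GFP_Low, and 1012, 888, 1171 and 1120.4 in GFP_High. Hair bulge was above Villus for both genes, just below GFP_High without overlap for Polr1c, and overlapping GFP_High for Polr1d. In hair bulge against GFP_High, the difference was -0.41 ± 0.16 SE for Polr1c (adjusted p = 0.052) and -0.24 ± 0.13 for Polr1d (adjusted p = 0.17), while that of Polr1a, Polr1b and Polr1e lay between -2.17 and -1.73. In Villus against GFP_High the shared subunits fell by 2.07 and 1.90 on the log2 scale. Polr1c was called lower in hair bulge with an offset of 16 (-0.38), a filter on dim probe sets (-0.41), the mean of its probe sets (-0.49), a fit of these groups only (-0.41), and without hair bulge 1 (-0.51) or GFP_High 2 (-0.46). A dimmer probe set of each gene was also called lower there, at -0.57 ± 0.14 for Polr1c and -0.61 ± 0.13 for Polr1d. Twistnb and Znrd1, subunits of RNA polymerase I under older symbols that the rule does not take, were counted among other genes below. Their differences in hair bulge against GFP_High were -0.56 ± 0.11 (adjusted p = 6.1e-04) and -0.28 ± 0.16 (adjusted p = 0.185), nearer to Polr1c and Polr1d. Against GFP_High in Villus they were -1.65 ± 0.11 and -0.36 ± 0.16. The difference between the shared subunits and Polr1a, Polr1b and Polr1e was seen in the values and was not tested.

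**Figure D2:**
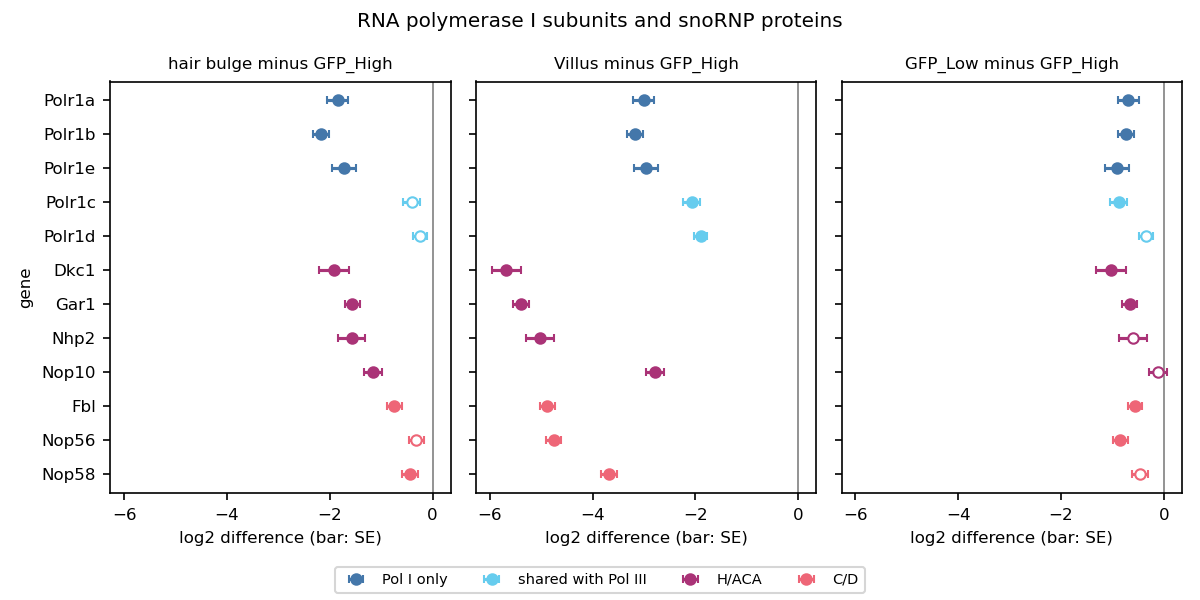
Difference from GFP_High (log2, x axis, with the SE of the fit as bars) of RNA polymerase I subunits and snoRNP proteins (y axis) in hair bulge, Villus and GFP_Low (panels). Filled points had an adjusted p under 0.05. In hair bulge Polr1a, Polr1b, Polr1e and the H/ACA proteins lie left of -1, and Polr1c, Polr1d and the C/D proteins lie right of it.

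The snoRNP proteins had the lowest median of the role groups in Villus: all 9 fell against GFP_High, with a median of -4.76 and a range of -5.68 to -2.18. The H/ACA protein Dkc1 (chrX:75095854-75109776, GRCm38.p6), which also belongs to telomerase, measured 143, 298 and 110 in hair bulge, 12, 16.3 and 9.6 in Villus, 239, 400 and 308 in GFP_Low, and 593, 706, 609 and 626 in GFP_High. Every Villus array was below every other array, and of the hair bulge arrays only hair bulge 2 reached into the GFP_Low range. Dkc1 was 51.2-fold lower in Villus than in GFP_High (log2 -5.68 ± 0.29 SE, adjusted p = 8.9e-10), which was the largest difference among the 57 members, and 2.05-fold lower in GFP_Low than in GFP_High (-1.03 ± 0.29, adjusted p = 0.024). The second call was lost with the sort as a block (-1.04) and without GFP_Low 1 (-0.85), GFP_Low 3 (-1.03), GFP_High 2 (-0.98) or GFP_High 4 (-1.04). Another Dkc1 probe set fell by 3.88 ± 0.33 in Villus and missed the threshold in GFP_Low (-0.71 ± 0.33, adjusted p = 0.17). Gar1, which binds Dkc1, measured 141, 186 and 132 in hair bulge, 10.4, 11.9 and 9.7 in Villus, 244, 338 and 274 in GFP_Low, and 462, 409, 476 and 443 in GFP_High. Its groups did not overlap, and it was 42.1-fold lower in Villus than in GFP_High (-5.39 ± 0.15, adjusted p = 4.8e-12). Nhp2 fell by 5.02 ± 0.27 and Nop10, the smallest H/ACA protein, by 2.79 ± 0.17 in the same comparison.

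The C/D proteins fell in Villus as well. Fbl measured 821, 998 and 720 in hair bulge, 41.0, 56.1 and 47.2 in Villus, 962, 1024 and 867 in GFP_Low, and 1342, 1514, 1339 and 1432 in GFP_High. It was 29.4-fold lower in Villus than in GFP_High (log2 -4.88 ± 0.14 SE, adjusted p = 6.5e-12) and 1.68-fold lower in hair bulge than in GFP_High (-0.74 ± 0.14, adjusted p = 4.2e-04), a call lost with median centring (-0.33). Nop56, a core scaffold of these particles, measured 928, 833 and 658 in hair bulge, 38.3, 31.8 and 41.0 in Villus, 458, 640 and 576 in GFP_Low, and 1008, 969, 1035 and 972 in GFP_High. For Nop56 the hair bulge arrays were above all GFP_Low arrays: the difference from GFP_High was -0.32 ± 0.15 in hair bulge (adjusted p = 0.099, called without hair bulge 1 at -0.43) and -0.85 ± 0.15 in GFP_Low (adjusted p = 0.0014). It was 21.7-fold higher in hair bulge than in Villus, the largest difference of a member in that comparison. Nop58, the partner of Nop56, differed by -0.43 ± 0.16 in hair bulge against GFP_High. Over the 4 H/ACA proteins that difference ran between -1.92 and -1.16, and over Fbl, Nop56 and Nop58 between -0.74 and -0.32, without overlap; this split was not tested. Nolc1, a chaperone that binds both kinds of particle, measured 199, 193 and 151 in hair bulge, 11.1, 9.5 and 18.5 in Villus, 206, 196 and 179 in GFP_Low, and 213, 237, 224 and 245 in GFP_High. It was 18.4-fold lower in Villus than in GFP_High, and its differences of -0.36 ± 0.19 in hair bulge and -0.25 ± 0.19 in GFP_Low missed the threshold. Another Nolc1 probe set was called lower in both, at -1.45 ± 0.23 in hair bulge and -0.74 ± 0.23 in GFP_Low, and the hair bulge difference was called with the mean of probe sets (-0.71), an offset of 16 (-0.33) and a fit of these groups only (-0.36).

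Of the 23 small subunit factors, 19 fell and 1 rose in Villus against GFP_High (median -1.80), 13 fell and 1 rose in hair bulge against GFP_High (median -0.44), and 6 fell in GFP_Low against GFP_High (median -0.39). Utp20, a very large processome protein, measured 97.2, 128 and 117 in hair bulge, 9.6, 7.3 and 6.9 in Villus, 78.8, 148 and 152 in GFP_Low, and 243, 244, 236 and 216 in GFP_High. Villus was at the level of the receptor probe sets, at least 27.8-fold below GFP_High, and hair bulge and GFP_Low overlapped. Wdr43, a processome subunit, measured 244, 212 and 243 in hair bulge, 27.6, 21.3 and 30.9 in Villus, 210, 216 and 184 in GFP_Low, and 274, 283, 260 and 251 in GFP_High. Against GFP_High it was 10.1-fold lower in Villus (log2 -3.34 ± 0.13 SE), with -0.20 ± 0.13 in hair bulge (adjusted p = 0.26) and -0.39 ± 0.13 in GFP_Low (adjusted p = 0.060). Its other probe set was called lower in all of these, at -0.98 ± 0.16 in hair bulge, -3.62 ± 0.16 in Villus and -0.59 ± 0.16 in GFP_Low. With the mean of both, Wdr43 was called lower in hair bulge (-0.59) and GFP_Low (-0.49), and in GFP_Low also with an offset of 16 (-0.37), a fit of these groups only (-0.39) and the methods' t-test (-0.39). Imp3, which helps the U3 snoRNA to pair with the precursor, averaged 266 ± 29.4 in hair bulge, 67.3 ± 9.8 in Villus, 300 ± 67.5 in GFP_Low and 459 ± 34.1 in GFP_High (SD, n = 3, 3, 3 and 4), and fell in hair bulge, Villus and GFP_Low against GFP_High, in GFP_Low with a call lost without GFP_Low 1 (log2 -0.46).

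Some small subunit factors did not follow the others. Nop9 measured 37.1, 43.3 and 25.0 in hair bulge, 43.8, 35.9 and 31.2 in Villus, 64.7, 96.5 and 78.3 in GFP_Low, and 78.4, 108, 84.4 and 108 in GFP_High, so that hair bulge and Villus overlapped (difference -0.10 ± 0.22 SE). Utp4, altered in an inherited childhood liver cirrhosis, had the other layout, with 149, 144 and 123 in hair bulge, 21.5, 25.9 and 18.5 in Villus, 109, 139 and 89.7 in GFP_Low, and 101, 159, 134 and 176 in GFP_High. It was 6.41-fold lower in Villus than in GFP_High, and hair bulge and GFP_High overlapped (-0.01 ± 0.20). Nol6 was called in none of the 5 comparisons, with all 13 arrays between 10.9 and 17.4, while Rrp36 and Utp23 missed the threshold in Villus against GFP_High (-0.04 ± 0.13 and -0.54 ± 0.23), where a dim probe set of Utp23 was called lower (-0.58).

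Utp14b was the small subunit factor that rose. It is a copy of the processome gene Utp14a without introns in its coding part, known for its role in the male germ line. It measured 37.7, 18.4 and 30.2 in hair bulge, 33.4, 29.2 and 20.8 in Villus, 7.5, 11.4 and 15.7 in GFP_Low, and 12.5, 17.5, 14.6 and 13.1 in GFP_High. All hair bulge and Villus arrays were above all GFP_Low and GFP_High arrays. The difference was 0.95 ± 0.27 SE in hair bulge (adjusted p = 0.0096) and 0.93 ± 0.27 in Villus (adjusted p = 0.011) against GFP_High, and it missed the threshold without hair bulge 1 (0.72) and without Villus 1 (0.79). In the RefSeq annotation of GRCm38.p6 the gene lies at chr1:78657825-78667601, inside the interval of Acsl3, a fatty acid activating enzyme (chr1:78657825-78707743), with the same first base. Acsl3 measured 1217, 614 and 1266 in hair bulge, 179, 214 and 210 in Villus, 152, 179 and 132 in GFP_Low, and 197, 292, 212 and 194 in GFP_High. Acsl3 was thus higher in hair bulge against GFP_High (2.15 ± 0.23) and differed by -0.14 ± 0.23 in Villus (adjusted p = 0.67). The part of Acsl3 transcripts in the Utp14b values was not tested.

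All 14 large subunit factors fell in Villus against GFP_High (median -2.64), 11 fell in hair bulge against GFP_High (median -0.88) and 5 in GFP_Low against GFP_High (median -0.48). Rrp15, which acts on early precursors of the large subunit, measured 70.8, 97.8 and 76.2 in hair bulge, 7.7, 6.5 and 5.3 in Villus, 95.5, 166 and 109 in GFP_Low, and 130, 192, 145 and 174 in GFP_High. No Villus array was above the level of the receptor probe sets, which gives a difference of at least 20-fold from GFP_High. Wdr12 of the PeBoW complex measured 32.8, 49.6 and 23.0 in hair bulge, 5.6, 6.9 and 5.9 in Villus, 71.1, 96.8 and 68.5 in GFP_Low, and 113, 150, 118 and 129 in GFP_High. The groups did not overlap, and Wdr12 was 3.79-fold lower in hair bulge than in GFP_High (log2 -1.92 ± 0.22 SE, adjusted p = 3.8e-06) and at least 16-fold lower in Villus than in GFP_High. A dimmer Wdr12 probe set fell less in Villus, by 1.96 ± 0.29.

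The other PeBoW members differed in size. Pes1 fell by 3.07 ± 0.17 SE and Bop1 by 1.19 ± 0.23 in Villus against GFP_High, and in hair bulge against GFP_High they fell by 0.99 ± 0.17 and 0.65 ± 0.23. Nop16, a factor of 28S maturation that is known as a target of Myc, measured 109, 123 and 67.2 in hair bulge, 10.8, 12.2 and 9.1 in Villus, 122, 152 and 147 in GFP_Low, and 196, 194, 226 and 288 in GFP_High. It was 21-fold lower in Villus than in GFP_High, and the groups other than hair bulge and GFP_Low were apart. Nop53, which brings the RNA exosome to the large subunit, measured 1269, 1354 and 1289 in hair bulge, 303, 243 and 279 in Villus, 682, 832 and 823 in GFP_Low, and 1262, 1275, 1268 and 1151 in GFP_High. Hair bulge and GFP_High overlapped (0.07 ± 0.12, adjusted p = 0.66), while GFP_Low was 1.59-fold lower than GFP_High (-0.67 ± 0.12, adjusted p = 0.0012).

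**Figure D3:**
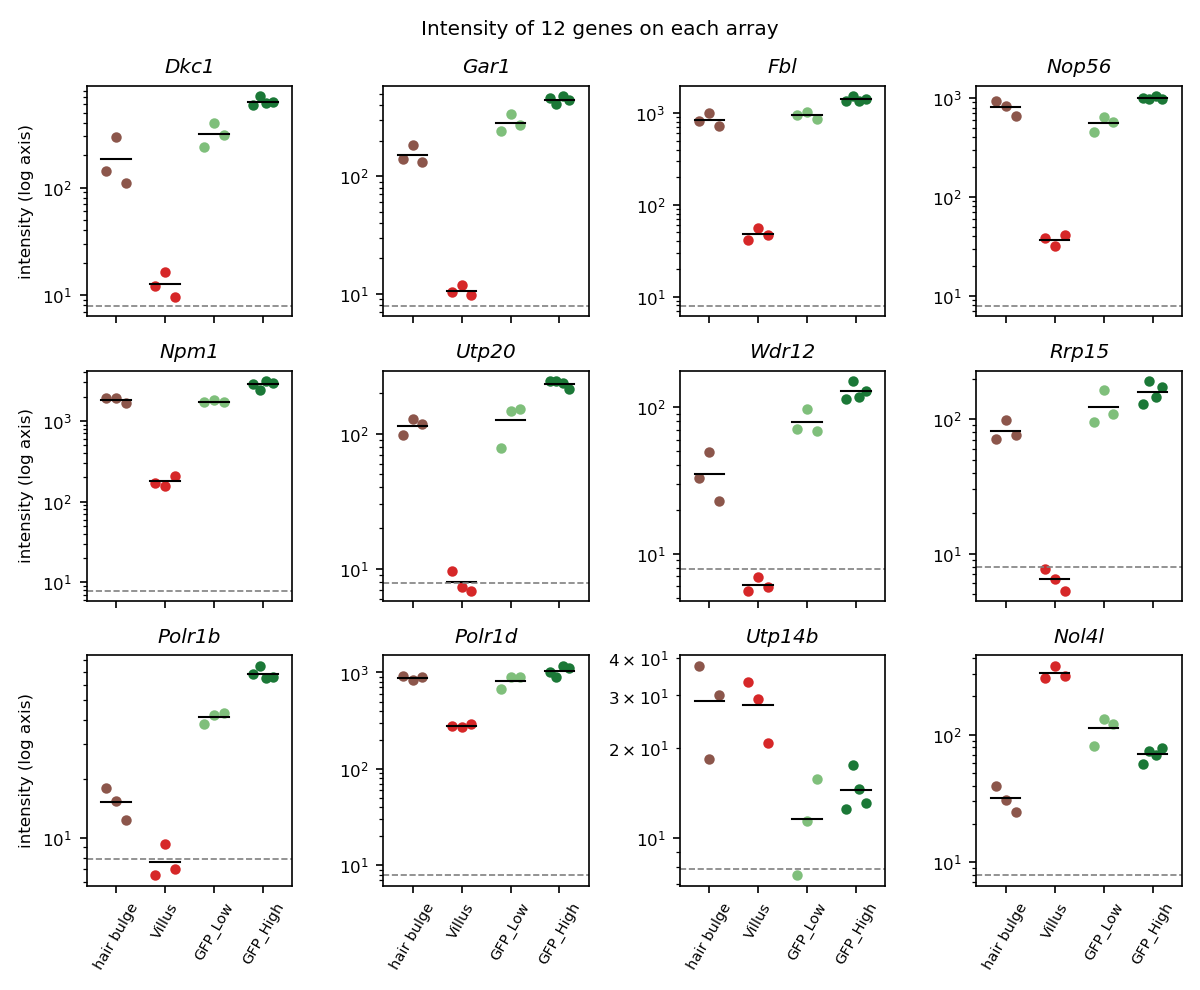
Intensity (y axis, log scale) of 12 genes on each array, by group (x axis). Points are arrays, horizontal bars are group means, and a dashed line at 7.9 marks the receptor level. Villus arrays are the lowest for each gene except Utp14b and Nol4l.

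Npm1, nucleophosmin, a histone and ribosome chaperone of the nucleolus, measured 1919.6, 1921 and 1648 in hair bulge, 169, 158 and 208 in Villus, 1693, 1804 and 1708 in GFP_Low, and 2827, 2408, 3101 and 2979.8 in GFP_High. Villus was 15.9-fold below GFP_High (log2 -3.99 ± 0.13 SE, adjusted p = 1.7e-11), and hair bulge and GFP_Low were 1.54-fold and 1.62-fold below it. The hair bulge call was lost with median centring (-0.21, against -0.63). Ncl, nucleolin, had means between 7.73 and 11.2 in all groups. Its probe set was thus near the receptor level, which limits its call as lower in hair bulge than in GFP_High (-0.53 ± 0.17).

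The 4 genes that only share the letters of these symbols went other ways. Nobox, a transcription factor of oocytes, and Nol4 were called in no comparison. Nol3, a repressor of apoptosis, was 1.62-fold lower in Villus than in GFP_High (log2 -0.69 ± 0.18 SE; -0.14 and not called with the mean of its probe sets), with a Villus mean of 8.17 next to the receptor level. Nol4l measured 39.7, 30.8 and 24.7 in hair bulge, 280, 347 and 289 in Villus, 81.9, 133 and 121 in GFP_Low, and 58.9, 75.1, 69.4 and 79.4 in GFP_High. All groups were apart and Villus was the highest. Nol4l was 4.33-fold higher in Villus than in GFP_High (2.11 ± 0.19, adjusted p = 3.6e-07) and 9.77-fold lower in hair bulge than in Villus. It was the member that rose in GFP_Low against GFP_High (0.64 ± 0.19, adjusted p = 0.035) and the member that fell in hair bulge against Villus. Its rise in GFP_Low missed the threshold without GFP_Low 2 (0.50), GFP_Low 3 (0.57), GFP_High 1 (0.56), GFP_High 2 (0.67) or GFP_High 3 (0.64). The rise also missed it with the mean of its probe sets (0.39) and by the methods' t-test (0.64). Another Nol4l probe set was not called there (0.44 ± 0.27). Without these 4 genes, Utp14b was the 1 member higher in Villus than in GFP_High.

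Of the 57 members, 32 have more than 1 probe set that names only that gene. In Villus against GFP_High, 25 of these had 2 or more probe sets called in the same direction and 1, Rrp7a, had calls in both directions. Rrp7a, a small subunit factor, was lower in Villus than in GFP_High by its brightest probe set (log2 -0.80 ± 0.17 SE). Its arrays were at 76.9, 68.2 and 73.3 in Villus and at 126, 133, 107 and 143 in GFP_High. Rrp7a was higher by a dim probe set (0.34 ± 0.12) and lower by another dim one (-0.52 ± 0.14). The mean log2 intensities of these dim probe sets, 2.68 and 2.61, were below the receptor level of 2.98. In hair bulge against GFP_High the probe sets of Nol7 disagreed, at -0.97 ± 0.17 for the brightest and 1.11 ± 0.19 for another, as did those of Nol11, at -1.28 ± 0.28 for the brightest and 0.55 ± 0.18 for a dim probe set. With the mean of its probe sets, Rrp7a was not called in Villus (-0.21) or hair bulge (-0.20) against GFP_High, nor was Nol7 in hair bulge (-0.18). The directions of Rrp7a, Nol7 and Nol11 are therefore uncertain where probe sets disagree.

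Myc, which is active in intestinal crypts, and its partner Max bind the E-box letters CACGTG, and many ribosome assembly genes are known Myc targets, so the promoters were searched for these letters. A promoter of RefSeq (GRCm38.p6), from 250 bases before to 50 bases after a start site, was at hand for 45 of 57 members. CACGTG, which reads the same on both strands, stood in the promoters of 10 of 45 members (22.2%) of 10.2% of the 13514 measured genes with a promoter, and of 8.09% of all 27025 genes with one. The median difference in Villus against GFP_High was -2.31 over the 10 members with these letters and -2.60 over the 35 without. A match is not a binding site. The stretches around the letters are shown for the small subunit factors Wdr43, Nol11, Utp14b and Rrp7a, which differ in the direction and size of their change, 5′ to 3′ on the strand of the gene with CACGTG in capitals. Utp20 also has the letters, more than 30 bases past its start, and is not shown. Pes1, Utp4, Utp18, Imp4 and Nop2 have them too and are not shown. Of the 10 members with the letters, only Utp14b was higher in Villus than in GFP_High.
Wdr43 (chr17:71616187-71616244, plus strand): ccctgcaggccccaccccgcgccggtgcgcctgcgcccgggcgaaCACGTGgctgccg
Nol11 (chr11:107189374-107189469, minus strand): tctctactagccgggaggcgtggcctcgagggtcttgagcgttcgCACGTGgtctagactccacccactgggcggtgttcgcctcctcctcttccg
Utp14b (chr1:78658332-78658427, plus strand): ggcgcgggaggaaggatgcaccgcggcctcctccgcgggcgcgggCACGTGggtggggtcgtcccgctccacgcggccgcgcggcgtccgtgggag
Rrp7a (chr15:83122959-83123051, minus strand): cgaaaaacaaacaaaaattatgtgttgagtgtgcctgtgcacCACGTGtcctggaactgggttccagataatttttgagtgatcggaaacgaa
With the first transcribed base counted as 1, the letters cover bases 18 to 23 in Wdr43, -43 to -38 in Nol11, -63 to -58 in Utp14b and -208 to -203 in Rrp7a. The Utp14b start used here lies after the first base of the gene interval given above. Its letters thus lie inside the intervals of both Utp14b and Acsl3. Utp14b, with the letters, was higher in Villus than in GFP_High (log2 0.93) and Wdr43, also with them, was lower (-3.34).

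Other letters were searched in the same promoters on both strands, none of which contains another. CCGGAAG, the core of sites for ETS family factors, was found in 13 of 45 members (28.9%) and in 15.1% of measured genes, among them Gar1, Nhp2, Nolc1, Rrp15, Polr1c and Polr1e. CTCGCGA was found in 4 members (8.89%) and in 3.5% of measured genes, and GCATGCG in 2 members (4.44%) and in 5.81% of measured genes. Over all genes with a promoter the shares were 9.93%, 2.22% and 4.01%. The median difference in Villus against GFP_High was -2.22 over the 13 members with CCGGAAG and -2.50 over the 32 without. No test was made of these shares.

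Genes of cell division had the same order of groups in the intestine. Of 10 such genes 9 were measured, all above the receptor level in hair bulge, GFP_Low and GFP_High and 7 in Villus (not Mcm3 and Mcm5). Their summed intensity was 2349 to 3936 in hair bulge, 650.1 to 806 in Villus, 5479 to 6046 in GFP_Low and 7991 to 8962 in GFP_High. Pcna alone made up most of the sum in hair bulge (2729, 2256 and 2148) and in Villus (513, 538 and 580.5). Another of these genes, Ube2c, measured 22.6, 155.5 and 9.8 in hair bulge and 20.5, 32.4 and 35.5 in Villus. Hair bulge arrays differed from each other. The mean log2 intensity of cell division genes was 6.02, 7.91 and 4.86 on hair bulge 1, 2 and 3. On the Villus arrays it was 4.18 to 4.88. The mean of the ribosome assembly genes was 6.50, 6.70 and 6.32 on hair bulge 1, 2 and 3, against 4.80 to 4.84 on the Villus arrays. Mki67, a marker of dividing cells, measured 57.3, 344 and 15.7 in hair bulge, 11.6, 27.0 and 24.2 in Villus, 664, 800 and 776 in GFP_Low, and 1098, 1035, 982 and 1090 in GFP_High. The part of cell division in the differences of the members was not tested.

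**Figure D4:**
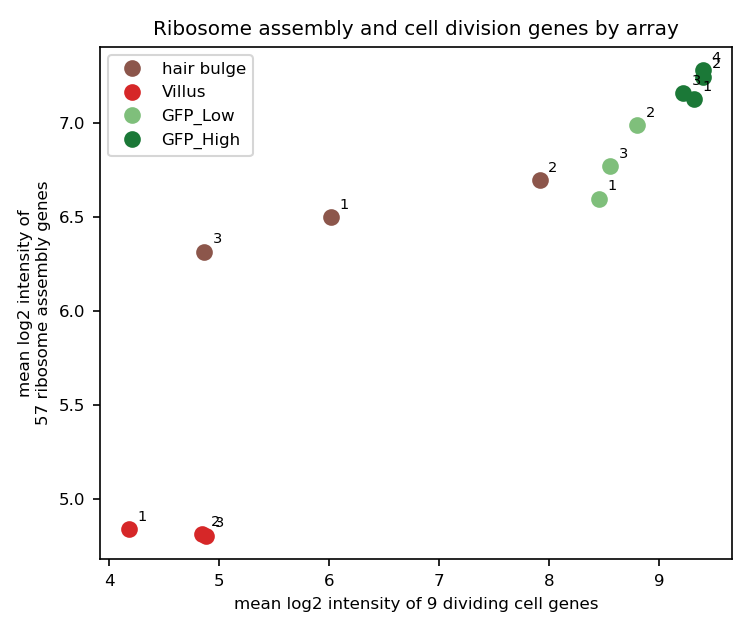
Mean log2 intensity of the 57 members (y axis) against that of 9 cell division genes (x axis), with 1 point per array, coloured by group and numbered by replicate. Hair bulge 1, 2 and 3 have cell division levels of 6.02, 7.91 and 4.86 and ribosome assembly levels of 6.50, 6.70 and 6.32.

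Markers of other cells differed between the groups as well. Ptprc, which marks leukocytes, measured 3.9, 5.1 and 5.3 in hair bulge, 188, 167 and 113 in Villus, and at most 4.6 in GFP_Low and GFP_High. Of 5 measured leukocyte genes 3 were above the receptor level in Villus and 2 (Cd79a and Itgam) were not. The 5 summed to 26.5 to 29.2 in hair bulge, 424 to 634 in Villus, 7616 to 12690 in GFP_Low and 2164 to 4527 in GFP_High, and in the GFP sorts nearly all of the sum was Lyz2, a lysozyme. Genes of handling and stress, 7 of 7 above that level in each group, summed to 36420 to 48090 in hair bulge, 2691 to 3641 in Villus, 11560 to 13070 in GFP_Low and 7840 to 14340 in GFP_High. Secretory cell genes, 8 measured and none above that level in hair bulge, summed to 41.0 to 52.1 in hair bulge, 9823 to 10900 in Villus, 10310 to 12210 in GFP_Low, and 725.7 to 1438 in GFP_High. Melanocyte and erythroid genes summed to 527 to 833 in hair bulge. Their sums were 55.6 to 216 in Villus, 53.3 to 155 in GFP_Low and 48.8 to 194 in GFP_High. Genes of mesenchyme and endothelium summed to 157 to 375 in hair bulge and 53.8 to 93.3 in Villus. The latter sums were 121 to 210 in GFP_Low and 33.2 to 47.3 in GFP_High. The part of other cells or of handling in the members' differences was not tested.

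Ribosome assembly genes outside the symbol rule were also counted, 72 of them. In Villus against GFP_High, 64 fell and 2 rose (median -2.04), where 26.3% of all genes fell and 22.6% rose. Hair bulge against GFP_High had 47 lower and 2 higher (median -0.68, all genes 29.1% and 19.4%). For GFP_Low against GFP_High, 20 fell and 0 rose (median -0.39, all genes 10.4% and 6.32%). Villus against GFP_Low had 60 lower and 2 higher (median -1.51, all genes 21.3% and 20.8%). Between hair bulge and Villus, 3 were lower and 58 higher in hair bulge (median 1.32, all genes 27.4% and 26.9%). The genes that fell most in Villus were Dis3, a nuclease of the RNA exosome (log2 -4.38 ± 0.23 SE), the exosome subunit Exosc8 (-4.36 ± 0.25) and Noc2l (-4.18 ± 0.20), a homologue of a yeast nucleolar complex protein. The 2 genes that rose in Villus, Sbds (0.90 ± 0.13) and Eif6 (0.68 ± 0.12), act together at a late step in the cytoplasm, where Sbds helps to release Eif6 from the new large subunit. Sbds averaged 327 in hair bulge, 435 in Villus, 262 in GFP_Low and 233 in GFP_High. Of 9 measured genes of the exosome, which trims ribosomal RNA, 8 fell in hair bulge (median -1.55) and 8 in Villus (median -1.95) against GFP_High, and in hair bulge against Villus 6 rose and 1, Exosc9, fell (median 1.25). Of 8 measured RNA polymerase I factors, Twistnb and Znrd1 included, 7 fell in Villus against GFP_High with a median of -0.95. In hair bulge against GFP_High 2 of these 8 fell, near the share of all genes (29.1%), with a median of -0.20. Ubtf, which opens ribosomal DNA for transcription, differed by -0.46 ± 0.15 in Villus against GFP_High.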

How the data were processed

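The 13 arrays were made from total RNA of the 4 groups. The deposited values are intensities. The authors made them by RMA-sketch in Affymetrix Power Tools (no version is given in the sources used here), which subtracts background, equalizes the arrays and summarizes each probe set, so a shift shared by all genes between groups would be removed. They were taken to log2 without further scaling.

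Of 45141 probe sets, 28898 name a single gene in the platform annotation, 551 several and 15692 were unnamed. Each of 17097 genes was represented by its probe set of highest mean. Gnl3, also in the symbol rule, has no such probe set here. The members and all lists were chosen with earlier results of these data known.

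Groups were compared with limma 3.58.1 (R 4.3.3) on all 13 arrays, with Benjamini-Hochberg adjustment. The fit was tested on simulated data. A fold that meets a group at or below the receptor level is a lower limit. P values weigh a difference against the spread between arrays within all groups, and the number of arrays limits the precision. They do not describe the spread between single mice, since mice were combined in the intestinal sorts. Arrays of a sort, paired by the code in their titles, deviated together (correlations 0.291, 0.451 and 0.32), so the sort was also fitted as a block. Genes named with values were the members with the largest called differences by role and comparison, those that moved against the others and those with discordant probe sets. Nop10, Nop58, Nop9, Nop53, Utp4, Utp23, Rrp36, Nol6, Nol8, Wdr75, Pes1, Bop1, Polr1d, Ncl, Nobox, Nol4, Acsl3, Ubtf, Twistnb and Znrd1 were named after their values were seen. Alternatives were other scalings, an offset of 16, a filter on dim probe sets, the mean of a gene's probe sets, a fit of only the groups compared, the test named in the methods, the block, and leaving out each array. Counts of protein motifs were not run. Promoters are from RefSeq. Plots used Python 3.11.15 and matplotlib 3.10.9.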

Additional observations from a re-analysis of the deposited data

How the results depend on the processing

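Kept calls were counted over all alternatives except the methods' t-test at its own threshold (p under 0.01, unadjusted). Villus against GFP_High kept 48 of its 51 calls, Villus against GFP_Low 46 of 49 and hair bulge against Villus 44 of 48. Hair bulge against GFP_High kept 20 of 37 and GFP_Low against GFP_High 6 of 21 (Gar1, Nop53, Nop56, Npm1, Polr1b and Polr1c). At that threshold 37 members were higher and 1 lower in hair bulge against Villus. Lower members there numbered 27 in hair bulge and 15 in GFP_Low against GFP_High. In GFP_Low against GFP_High, with 20 lower and 1 higher, the counts were 11 lower with arrays centred on the median of expressed genes, 10 lower and 0 higher by the methods' t-test after adjustment (0 higher also at its own threshold), 0 higher with the mean of probe sets, and 12 lower with the sort as a block. The block was fitted for this comparison alone; it ended the calls of Dkc1, Polr1a, Nop16 and Wdr12 among the named members. Leaving out 1 array gave 10 to 24 lower and 0 to 1 higher: 10 without GFP_Low 1, 11 without GFP_Low 3 and 13 without GFP_High 4, and 0 higher without GFP_Low 2, GFP_Low 3, GFP_High 1, GFP_High 2 or GFP_High 3. In hair bulge against GFP_High, with 36 lower, 1 higher and a median of -0.61, centring gave 22 lower, 6 higher and -0.20, quantile normalization 2 higher and -0.40, and the methods' t-test at its own threshold 0 higher. Leaving out 1 array gave 30 to 38 lower and 0 to 2 higher, with 0 without hair bulge 1 and 2 without hair bulge 3. The other 5 members higher after centring were Nobox, Nol3, Nop53, Utp23 and Wdr75. Centring moved the median of all genes to 0.35 in that comparison, 0.33 in Villus against GFP_High, 0.17 in Villus against GFP_Low and 0.12 in GFP_Low against GFP_High, and relative to it the members' medians were -0.55, -2.23, -1.77 and -0.39. Over all genes, centring gave 3527 lower and 7610 higher in hair bulge against GFP_High (4980 and 3321 without it), 3577 and 7238 in Villus against GFP_High (4493 and 3868), and 1093 and 1591 in GFP_Low against GFP_High (1773 and 1080), where quantile normalization gave 1410 and 1380. The median in Villus against GFP_High was -1.90 with centring and -1.84 with an offset of 16, that in Villus against GFP_Low -1.38 with the offset, and that in hair bulge against Villus 1.25 with the offset and 1.37 with the mean of probe sets. In Villus against GFP_High 1 member was higher without Villus 1 (1 to 2 over arrays left out), in Villus against GFP_Low 1 by the methods' t-test at both thresholds, and in hair bulge against Villus 2 were lower with quantile normalization, without hair bulge 2 or without Villus 2 (1 to 2). Of 1587 values of 23 named members in alternatives, 1499 kept their side of the threshold, 66 lost the call and 22 gained it. Among differences called at first, 0 reversed direction. Changes of direction among uncalled differences were not counted. The causes were not tested. Signal near the receptor level limits Ncl, Wdr75 and the Villus values of Utp20, Rrp15, Wdr12, Nol8 and Polr1b.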
